A study of Mus musculus with 96 samples.

Results

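The 9 genes described here, Myf5, Myod1, Myog, Myf6, Mef2a, Mef2c, Mef2d, Six4 and Pax7, encode transcription factors of the myogenic network. They were picked by gene symbol from a count table of 54150 entries, of which 54146 were Ensembl mouse genes and 4 were transgenes, and all 9 were present. RNA-seq was performed in C2C12, an immortalized mouse myoblast line that withdraws from the cell cycle and fuses into multinucleated myotubes when serum is lowered. The 96 libraries formed 35 groups of 2 or 3 and covered proliferating myoblasts (45 libraries), largely post-mitotic cells 24 hr into low serum (9 libraries) and myotubes after 4 days in low serum (42 libraries), each with inhibitors of mitochondria. On GRCm38.p6, the MRF genes lie at chr10:107482908-107486134 (Myf5, minus strand), chr7:46376474-46379099 (Myod1, plus), chr1:134289989-134292548 (Myog, plus) and chr10:107492853-107494737 (Myf6, minus, beside Myf5). Mef2a lies at chr7:67231163-67372858 (minus), Mef2c at chr13:83504034-83667080 (plus), Mef2d at chr3:88142372-88172086 (plus), Six4 at chr12:73099609-73113456 (minus) and Pax7 at chr4:139737062-139833528 (minus), and counts are estimates per transcript summed over the transcripts of each gene. The question put to these genes was how their transcripts differed between the 3 states and how they moved when a mitochondrial function was blocked.

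Skeletal muscle identity rests on 4 basic helix-loop-helix proteins, the myogenic regulatory factors (MRFs). Myf5 and Myod1 commit cells to the lineage, Myog drives terminal differentiation, and Myf6 (also called MRF4) acts mostly late. They pair with E proteins, bind E-boxes in the control regions of muscle genes, and work together with MEF2 proteins (here Mef2a, Mef2c and Mef2d), MADS-box factors that bind A/T-rich elements. Six4, a homeodomain protein, acts upstream and beside the MRFs through MEF3 elements, and Pax7, a paired-box protein, marks satellite cells, the stem cells of adult muscle.

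All myoblasts carried a doxycycline-inducible transgene, were given 300 ng/ml doxycycline and grew in 10% fetal serum. The transgene was luciferase (the control), LbNOX, a bacterial water-forming NADH oxidase, mitoLbNOX, the same enzyme sent to mitochondria, or NDI1, a yeast NADH dehydrogenase that can stand in for complex I. Cells meant for differentiation had no such transgene, were kept in 20% fetal serum and were moved to 2% horse serum at confluence. Some myotubes were transduced with adenovirus for GFP alone or GFP with LbNOX. Treatments lasted 10 hr with DMSO as vehicle and were piericidin (complex I, 0.5 µM), antimycin (complex III, 0.5 µM), oligomycin (ATP synthase, 1 µM) and, in myotubes, BAM15 (an uncoupler, 0.5 µM) or 5% oxygen from the night before. Chloramphenicol, which blocks mitochondrial translation, was given to myoblasts at 20 µg/ml for 48 hr. By the paper's account these cells were seeded more sparsely and had uridine, whereas the inhibitors were given in media without pyruvate or uridine. Transgene, doxycycline, serum and seeding density went with the myoblast state, so their part in a difference between myoblasts and the other states cannot be told apart from that of the state.

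Library totals ran from 6458295 to 15366745 estimated counts, and values below are normalized counts, that is counts scaled to a common effective library of 10454806. In bulk samples, fewer cells expressing a gene and less of its RNA per cell cannot be told apart. The state labels were checked with marker genes. The summed level of 4 proliferation genes (Mki67, Top2a, Ccnb1 and Cdk1) with DMSO was 11096 to 11590 in control myoblasts, 1873 to 2094 at 24 hr and 1060 to 1308 in untransduced myotubes. The sum of 5 myotube genes (Myh3, Mymk, Ckm, Tnnt3 and Acta1) was 177 to 217, 96878 to 101594 and 106176 to 110386 in the same groups. A satellite cell and myoblast list (Pax7, Myf5, Cd34, Vcam1, Itga7 and Cdh15) was lowest in myoblasts, against its name. Its sum was 3413 to 3567 in myoblasts, 17767 to 18894 at 24 hr and 13603.6 to 14254.5 in myotubes. Most of it was Itga7 (means 1321, 10415 and 9979) and Cdh15 (1024, 5543 and 2878). Vcam1 (530, 1698 and 429) was lowest in myotubes, and Cd34 (491, 485 and 467) changed little. A fibroblast list (Pdgfra, Ly6a, Dcn and Lum) also moved with state. Its sum went from 287 to 304 in myoblasts to 1865 to 1913 at 24 hr and 968 to 1030 in myotubes, Ly6a rose at 24 hr, and Dcn and Lum, near 0 in myoblasts, reached 889 and 22.5. Of the other markers, at 24 hr Cnn1 (smooth muscle) fell from 345 to 24.7, Runx2 (osteoblast) from 359 to 147, Pparg (adipocyte) from 91.3 to 38.7 and Cd68 (immune) from 9.99 to 4.39, while Smtn (smooth muscle) rose from 766 to 1475 and Tubb3 (neuronal) from 297 to 389. The part of such cells or transcripts in the results was not tested.

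In the step from proliferating myoblasts to cells 24 hr in low serum, Myf5, Myod1, Mef2a, Mef2d, Six4 and Pax7 rose. These are the 6 factors that also passed the filter on low counts in comparisons among myoblasts. Myog, Mef2c and Myf6 had so few counts in myoblasts that they were tested here only through later groups in which they are high, which fixed their direction, so they are described by their levels and not counted. A call here is an adjusted p under 0.05 in edgeR's quasi-likelihood test. At that threshold 63.6% of all 12766 genes tested differed between these groups, 31.3% of all genes upward, so a call as such was common. From 24 hr to myotubes the factors split. Mef2a, Mef2c and Mef2d rose, Myf5, Myod1, Myog and Pax7 fell, and Six4 did not pass, with Myf6 left out for the same reason, where 35.6% of all genes were called. Myotubes against myoblasts directly gave 5 of the 6 higher, with Myf5 not called, where 69.4% of all genes were called, 35.7% of all genes upward.

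Myog, which encodes myogenin, made the largest move. Control myoblasts held 7.76, 3.69 and 1.94 normalized counts in replicates 1 to 3, from raw counts of 8, 5 and 2. Cells 24 hr in low serum held 14328, 15415 and 15736, and myotubes 8154, 7909 and 7328. The 3 groups stood far apart, with the peak at 24 hr. From the summed counts the 24 hr level was 3460 times that of myoblasts (95% counting interval 2098 to 6182) and the myotube level 1773 times (1075 to 3169). The fall from 24 hr to myotubes was 1.9-fold (log2 fold change -0.92 ± 0.07 (SE), adjusted p = 1.05e-11). Per exon length, Myog at 24 hr ranked 29th of 13346 expressed genes, with 969.9 ± 47.2 RPKM (counts per exon length and library size, SD, n = 3), and 68th in myotubes with 499 ± 27.1.

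Myod1, which encodes MyoD, was present in every state and moved little by comparison. Control myoblasts held 1256, 1267 and 1325, 24 hr cells 2054, 2062 and 2193, and myotubes 1577, 1645 and 1667. No 2 of these groups overlapped and the 24 hr cells were highest. The rise at 24 hr was 1.64-fold (log2 fold change 0.72 ± 0.05 (SE), adjusted p = 2.26e-12), and the later fall 1.26-fold (log2 fold change -0.33 ± 0.05 (SE), adjusted p = 1.79e-05).

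Myf5 was 135, 107 and 103 in control myoblasts, 213, 155 and 179.8 at 24 hr, and 100.1, 92.6 and 85.1 in myotubes. It was thus highest at 24 hr (log2 fold change 0.68 ± 0.11 (SE), adjusted p = 6.98e-06) and fell 1.93-fold by the myotube stage (log2 fold change -0.95 ± 0.12 (SE), adjusted p = 2.2e-07). Myotubes and myoblasts did not overlap, but the difference of -0.27 ± 0.12 log2 units was not called (adjusted p = 0.0524), and it was called without replicate 2 or 3 of control myoblasts with DMSO or replicate 1 of myotubes with DMSO (adjusted p = 0.0402 to 0.0494). Myf6 was close to silent before the myotube stage. Its raw counts were 0, 1 and 0 in myoblasts, 2, 5 and 0 at 24 hr, and 47, 28 and 33 in myotubes, where the 3 libraries stood above all others. The ratio of myotubes to 24 hr cells was 17.1 (95% counting interval 8.02 to 43.5). That of 24 hr cells to myoblasts was 7.20 (0.924 to 324; adjusted p = 0.0971), a call that was gained without replicate 3 of 24 hr cells with DMSO (adjusted p = 0.0268).

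**Figure D1:**
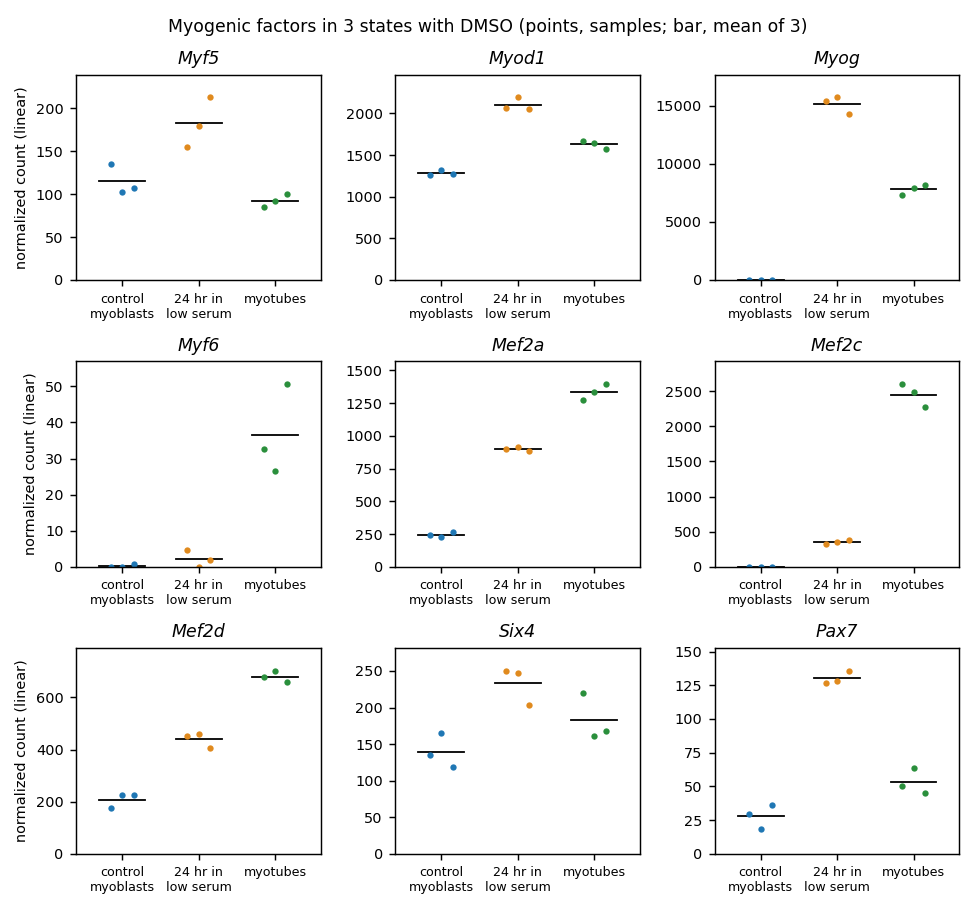
Normalized counts (vertical axes, linear, one scale per gene) of the 9 factors in control myoblasts, cells 24 hr in low serum and untransduced myotubes, all with DMSO; points are the 3 samples of a group and bars their mean. Myog, Myod1, Myf5, Six4 and Pax7 have their highest mean at 24 hr, whereas Myf6, Mef2a, Mef2c and Mef2d are highest in myotubes.

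These shifts changed which MRF transcript was most abundant per exon length. In control myoblasts Myod1 made up 92.2% ± 1.42 (SD, n = 3) of the summed MRF level, Myf5 7.39% ± 1.16 and Myog 0.401% ± 0.27. At 24 hr Myog made up 89.3% ± 0.437 and Myod1 9.95% ± 0.299, and in myotubes 84.6% ± 0.907 and 14.2% ± 1.01. Myf6 stayed a minor transcript, at 0.468% ± 0.147 in myotubes.

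Mef2a and Mef2d rose at both steps. Mef2a was 244, 267 and 228 in myoblasts, 881, 900.1 and 913 at 24 hr, and 1395, 1334 and 1278 in myotubes. Mef2d was 175, 225 and 224, then 408, 453 and 461, then 661, 701 and 677. For both genes each group lay wholly above the one before. Over the whole course Mef2a rose 5.56-fold (log2 fold change 2.48 ± 0.10 (SE), adjusted p = 3.54e-19) and Mef2d 3.36-fold (log2 fold change 1.75 ± 0.09 (SE), adjusted p = 9.26e-17). Libraries were not strand-specific, and 302 of the 14681 exon bases of Mef2a lie opposite Lysmd4 and 531 of the 5985 of Mef2d opposite the antisense gene 1700113A16Rik, so reads of these stretches cannot be told apart.

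Mef2c behaved otherwise, with raw counts of 3, 4 and 0 in myoblasts. It reached 375, 322 and 359.5 normalized counts at 24 hr and 2276, 2483 and 2599 in myotubes. Its level at 24 hr was 172 times that of myoblasts (95% counting interval 83.2 to 429), and it rose a further 7.14-fold by the myotube stage (log2 fold change 2.83 ± 0.10 (SE), adjusted p = 8.74e-19). Mef2c thus went on rising over the interval in which Myog fell. Of the summed MEF2 level per exon length, Mef2c was 0.247% ± 0.216 (SD, n = 3) in myoblasts, 14.3% ± 1.34 at 24 hr and 43.3% ± 1.94 in myotubes. By the same measure Mef2d made up 67.1% ± 3.59 in myoblasts and 31.5% ± 0.528 in myotubes. These shares depend on the exon lengths used, 14681 bases for Mef2a, 15715 for Mef2c and 5985 for Mef2d. Not divided by length, Mef2a had more normalized counts than Mef2d in all 3 states, so their order is not settled.

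**Figure D2:**
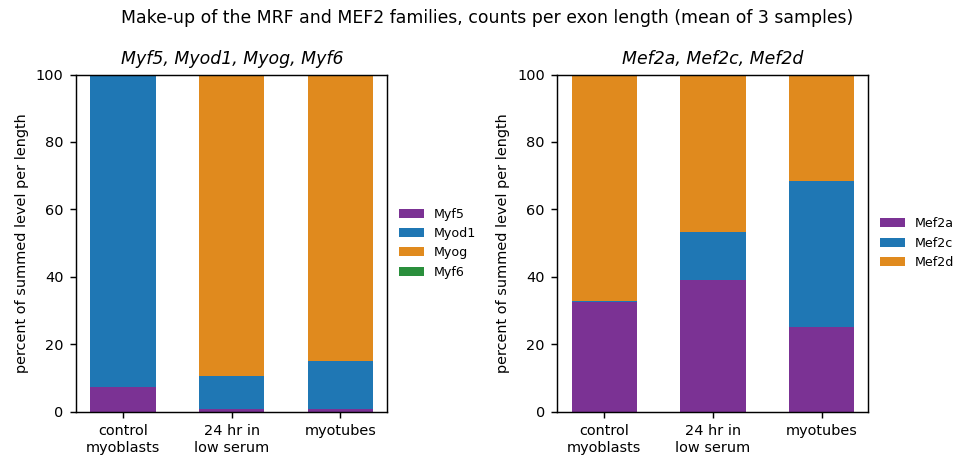
Percent of the summed level per exon length (vertical axis) that each gene contributed to the MRF family (left) and the MEF2 family (right) in the 3 states with DMSO; stacked bars show means of 3 samples. Myod1 fills 92.2% of the MRF bar in myoblasts and Myog 89.3% at 24 hr, and the Mef2c share of the MEF2 bar is 43.3% in myotubes.

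Six4 and Pax7 peaked at 24 hr. Six4 was 135, 119 and 165 in control myoblasts, 203, 249.8 and 247 at 24 hr, and 168, 161 and 219.6 in myotubes. The 24 hr cells stood above the myoblasts (log2 fold change 0.75 ± 0.14 (SE), adjusted p = 3.62e-05), while the myotubes overlapped both groups. The myotube to myoblast difference (log2 fold change 0.43 ± 0.14 (SE), adjusted p = 0.00922) was not called without replicate 2 of control myoblasts with DMSO or replicate 3 of myotubes with DMSO (adjusted p = 0.0795 to 0.12), and the 24 hr to myotube difference (-0.32 ± 0.14, adjusted p = 0.0771) was called without replicate 1 of 24 hr cells with DMSO or replicate 3 of myotubes with DMSO (adjusted p = 0.0118 to 0.0301). Pax7 was 29.1, 36.2 and 18.4, then 136, 127 and 128, then 45.2, 63.3 and 50.4. Its 24 hr libraries lay above all others, 4.61-fold over myoblasts (log2 fold change 2.20 ± 0.30 (SE), adjusted p = 2.88e-07), and fell 2.39-fold by the myotube stage (-1.26 ± 0.29, adjusted p = 0.000998). The satellite cell marker was therefore more abundant in the largely post-mitotic cells than in the dividing ones. The excess of myotubes over myoblasts (0.95 ± 0.32, adjusted p = 0.00935) was not called without replicate 3 of control myoblasts with DMSO or replicate 2 of myotubes with DMSO (adjusted p = 0.0526 to 0.06). With GFP-transduced myotubes in place of untransduced ones, neither Pax7 (0.77, adjusted p = 0.0667) nor Six4 (0.21, adjusted p = 0.245) was called against myoblasts.

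Other genes of the network were taken from a list of 41 partners and upstream regulators, 32 of which passed the filter on low counts. At 24 hr 18 of the 32 were called higher and 7 lower than in myoblasts, where 63.6% of all genes changed, and in myotubes against myoblasts 14 were called higher and 11 lower (69.4% of all genes). Among myoblasts only 27 of the 41 passed the filter. Vgll2, Msc, Hdac9 and Mamstr, which are among the higher ones in both counts, entered through the later states, which fixed their direction. From 24 hr to myotubes 3 of the 32 rose and 16 fell (35.6% of all genes changed). The factors that fell most from myoblasts to myotubes were the Id proteins, which lack a DNA-binding region and sequester E proteins. Id3 went from 5096 ± 54.5 to 303 ± 70.0 normalized counts (SD, n = 3; adjusted p = 5.31e-24), Id1 fell 4.97-fold (adjusted p = 3.35e-21), and Id2 from 1119 ± 84.6 to 287 ± 4.61 (adjusted p = 4.99e-15). Eya1, a transcriptional coactivator, fell 2.38-fold and Hey1 2.28-fold. Among those that rose, the E protein gene Tcf4 went from 557 ± 5.61 to 1328 ± 39.5. Hes1 rose 3.82-fold, Sox8 3.01-fold, and Smarcd3, which encodes a chromatin remodelling subunit, 1.77-fold.

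The downstream muscle genes of the same network were listed as 45 genes that MRF and MEF2 proteins are known to activate. Against myoblasts, 44 were higher at 24 hr (31.3% of all genes) and 45 in myotubes (35.7%). In the comparisons among myoblasts only 17 of the 45 passed the filter on low counts. The others entered through the later states, where they are high, which fixed their direction, so nothing is read from these counts. Between 24 hr and myotubes 33 were called higher and 3 lower (35.6% of all genes changed). Ckmt2, at 0.537 normalized counts at 24 hr and 21.4 in myotubes, entered only through myotubes, which fixed its direction here too. Myosin heavy chain genes Myh4 and Myh7 had no count in control myoblasts and reached 6054 ± 430.2 and 1583 ± 195.7 normalized counts in myotubes (SD, n = 3), at least 6894-fold and at least 1810-fold higher against a floor of 3 counts over the group. Mymx, which encodes the fusion peptide myomixer, was at least 1229-fold higher by the same measure. Atp2a1, the sarcoplasmic reticulum calcium pump, had 6 counts over the 3 control myoblast libraries, all in 1 of them, against 45971 over the myotube libraries. The myosin light chain gene Myl1 had 15, nearly all in the same library, against 90703, and no fold is given for either gene.

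Because Myog and Mef2c were nearly silent in myoblasts and rose together, the 250 bases upstream of their starts were read for the elements that the factors themselves bind. Sequences are those of RefSeq on GRCm38.p6, in which 7 of the 9 members had a window, with none for Myod1 and Myf6. Both strands were searched for the E-box (CANNTG, bound by MRFs with E proteins), the MEF3 element (TCAGGTT, bound by Six4) and an 8-base MEF2 core (TA, then 4 bases that are each A or T, then TA). Over all 32841 windows of this length 66.2% held an E-box, 3.49% a MEF3 element and 8.55% a MEF2 core, and 74 windows (0.225%) held all 3. Among the members, the windows of Myog and of the first Mef2c start held all 3. The third Mef2c start held an E-box and 1 of the Six4 starts a MEF3 element, 97 to 91 bases before that start. Both of these matches lie inside the gene spans given above. The windows of Myf5, Mef2a, Mef2d and Pax7, the second Mef2c start and the other Six4 start held none, although Mef2a and Mef2d also rose. The Myog and first Mef2c windows are shown with that of Myf5, the MRF with the largest rise in myoblasts with inhibitors, each on its gene's strand and with matches in capitals. The Myog stretch is chr1:134289754-134289988 (plus strand), that of Mef2c chr13:83503784-83504033 (plus strand) and that of Myf5 chr10:107486135-107486384 (minus strand).
Myog: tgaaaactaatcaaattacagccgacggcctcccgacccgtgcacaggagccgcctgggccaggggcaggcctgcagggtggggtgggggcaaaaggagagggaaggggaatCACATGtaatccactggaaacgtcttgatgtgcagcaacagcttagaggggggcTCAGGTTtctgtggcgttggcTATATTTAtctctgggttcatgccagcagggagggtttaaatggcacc
Mef2c: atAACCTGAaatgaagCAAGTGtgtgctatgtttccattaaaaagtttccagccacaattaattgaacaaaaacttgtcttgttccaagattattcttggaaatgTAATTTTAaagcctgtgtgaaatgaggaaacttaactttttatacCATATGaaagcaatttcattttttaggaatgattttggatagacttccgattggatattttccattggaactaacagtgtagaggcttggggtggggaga
Myf5: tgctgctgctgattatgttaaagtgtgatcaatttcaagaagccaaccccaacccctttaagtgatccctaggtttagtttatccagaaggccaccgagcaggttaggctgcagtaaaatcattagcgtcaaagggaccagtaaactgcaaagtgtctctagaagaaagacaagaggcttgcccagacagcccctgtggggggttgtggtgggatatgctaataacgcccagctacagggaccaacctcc
In Myog the E-box CACATG lies 138 to 133 bases, the MEF3 match 84 to 78 bases and the MEF2 core 63 to 56 bases upstream of the RefSeq start, which lies downstream of the gene start given above, so that the stretch shown stops short of it. A second E-box (CAGTTG) follows at 12 to 7 bases from the RefSeq start, beyond the stretch shown. In Mef2c the MEF3 match lies on the opposite strand at 248 to 242 bases, the E-boxes at 234 to 229 and 100 to 95 bases and the MEF2 core at 145 to 138 bases. A match of letters is a description of the window and was not tested for binding.

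In control myoblasts the inhibitors moved Myf5 upward and Six4 and Pax7 downward, and they split on Myod1. Only 6 of the factors could be tested in myoblasts, since Myog, Myf6 and Mef2c stayed below 16 counts in at least 1 replicate of every group. Piericidin changed 5 of the 6 (2 up, 3 down; 61.7% of all genes were called), antimycin all 6 (4 up, 2 down; 63.2%) and oligomycin 4 (1 up, 3 down; 50.8%). These comparisons share their DMSO libraries.

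Myf5 showed the largest rise of the 6 factors tested in control myoblasts with each inhibitor. Control myoblasts with DMSO held 135, 107 and 103 normalized counts, against 154, 153 and 187 with oligomycin, 599, 600.2 and 563 with piericidin, and 1318, 1404 and 1393 with antimycin. The 4 groups formed 4 separate steps in this order. Oligomycin raised Myf5 1.44-fold (log2 fold change 0.53 ± 0.14 (SE), adjusted p = 0.00187), piericidin 5.24-fold (log2 fold change 2.39 ± 0.13 (SE), adjusted p = 7.14e-16) and antimycin 12.3-fold (log2 fold change 3.62 ± 0.13 (SE), adjusted p = 2.92e-20). Compared directly, antimycin exceeded piericidin by 2.35-fold (adjusted p = 9.23e-10), antimycin exceeded oligomycin by 8.53-fold (adjusted p = 2.36e-18), and piericidin exceeded oligomycin by 3.63-fold (adjusted p = 8.48e-13). With antimycin, Myf5 in these myoblasts was higher than in any other group of the series.

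Myod1 fell with 2 of the inhibitors. From 1256, 1267 and 1325 with DMSO it went to 797, 772 and 816 with piericidin, 663, 708 and 745 with oligomycin, and 1595, 1534 and 1366 with antimycin. Piericidin and oligomycin libraries lay wholly below the DMSO range and antimycin libraries wholly above it. The falls were 1.58-fold (log2 fold change -0.66 ± 0.07 (SE), adjusted p = 1.13e-09) and 1.8-fold (log2 fold change -0.85 ± 0.07 (SE), adjusted p = 6.93e-12). The rise with antimycin (log2 fold change 0.27 ± 0.07 (SE), adjusted p = 0.000887) turned to -0.03 when libraries were scaled by their totals only, so its direction depended on the scaling.

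The homeodomain and paired-box genes fell with all 3 inhibitors. Six4 was 135, 119 and 165 with DMSO, 68.7, 53.5 and 78.4 with oligomycin, 43.9, 68 and 60.7 with piericidin, and 34.1, 43.9 and 36.2 with antimycin. Every treated library lay below every DMSO library, and the falls were 2.07-fold (adjusted p = 0.000109), 2.36-fold (adjusted p = 1.27e-05) and 3.55-fold (adjusted p = 4.1e-08). Pax7, already low, had raw counts of 30, 49 and 19 with DMSO, 14, 13 and 9 with oligomycin, 8, 12 and 0 with piericidin, and 5, 3 and 4 with antimycin. Its falls of 3.53-fold with piericidin (-1.82 ± 0.48, adjusted p = 0.0016) and 5.88-fold with antimycin (-2.56 ± 0.52, adjusted p = 9.3e-05) kept their calls without any 1 library. That with oligomycin (-1.21 ± 0.44, adjusted p = 0.0228) was lost without replicate 2 of control myoblasts with DMSO or replicate 2 or 3 of control myoblasts with oligomycin (adjusted p = 0.0591 to 0.11).

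Mef2d rose with both inhibitors of the respiratory chain and Mef2a with antimycin. Mef2d was 175, 225 and 224 with DMSO, 335, 325 and 364 with piericidin, and 441, 435 and 423 with antimycin. Both treated groups lay above the DMSO range, 1.68-fold (0.75 ± 0.13, adjusted p = 7.68e-06) and 2.14-fold (1.10 ± 0.13, adjusted p = 7.55e-09). Mef2a with antimycin went to 479, 372 and 522 from 244, 267 and 228 (0.94 ± 0.15, adjusted p = 3.87e-06). With piericidin Mef2a was not called (0.28, adjusted p = 0.112), and with oligomycin neither was (Mef2a -0.15, adjusted p = 0.455; Mef2d -0.13, adjusted p = 0.41).

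Inhibitors also differed from each other over the remaining factors. Antimycin against piericidin gave 4 of 6 factors higher and none lower (37.2% of all genes called), antimycin against oligomycin 4 higher and Six4 lower (50%), and piericidin against oligomycin 4 higher (39.2%). The last count was 2 under scaling by library totals. The calls with the smallest margins were Mef2d in antimycin against piericidin, lost without replicate 1 or 2 of control myoblasts with antimycin or replicate 1 or 2 of control myoblasts with piericidin (adjusted p = 0.0514 to 0.0834), and Mef2a and Myod1 in piericidin against oligomycin. Mef2a there was lost without replicate 1 or 2 of control myoblasts with oligomycin or replicate 1 of control myoblasts with piericidin (adjusted p = 0.0662 to 0.129), and Myod1 without replicate 1 or 2 of control myoblasts with oligomycin or replicate 1 or 3 of control myoblasts with piericidin (adjusted p = 0.0573 to 0.143). Antimycin against piericidin gained Pax7 without replicate 3 of control myoblasts with piericidin (adjusted p = 0.0362) and Six4 without replicate 2 of control myoblasts with antimycin or replicate 1 of control myoblasts with piericidin (adjusted p = 0.0275 to 0.0481).

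Over the same myoblast comparisons, 27 of the 41 partner genes could be tested. Piericidin raised 6 and lowered 14 (61.7% of all genes changed), antimycin raised 7 and lowered 8 (63.2%), and oligomycin raised 3 and lowered 13 (50.8%). The median log2 fold changes were -0.63, -0.15 and -0.40, against -0.00368, -0.00478 and -0.0148 over all genes. Id1, Id2 and Id3 fell with each of the 3. The proliferation sum was 11096 to 11590 with DMSO, 9418 to 10002 with piericidin, 6765 to 7079 with antimycin and 9142 to 9533 with oligomycin, and its part in the responses was not tested. A neuronal list (Tubb3, Rbfox3 and Snap25) summed to 279 to 316 with DMSO, 1343 to 1511 with piericidin, 608 to 679 with antimycin and 452 to 545 with oligomycin, nearly all of it Tubb3. With antimycin Cd68 (an immune marker) rose 6.26-fold, Cnn1 (smooth muscle) 2.80-fold and Pparg (adipocyte) 2.35-fold. The other immune and adipocyte markers (Ptprc, Csf1r, Adipoq, Plin1 and Cebpa) were too low to be tested. With piericidin and oligomycin Cnn1 rose 1.39-fold and 1.41-fold, Pparg fell 1.58-fold and 1.83-fold, and Cd68 was not called. Smtn (smooth muscle) rose with piericidin and antimycin and fell with oligomycin. Runx2 (osteoblast) rose with antimycin and fell with piericidin. The fibroblast sum was 287 to 304 with DMSO, 163 to 188 with piericidin, 188 to 225 with antimycin and 113 to 196 with oligomycin, where Ly6a fell with all 3 and Pdgfra with piericidin and oligomycin. The part of these markers was not tested either. The sum of the 5 myotube genes was 177 to 217 with DMSO and 869 to 961 with antimycin, against 96878 to 101594 at 24 hr. Nearly all of it in myoblasts was Acta1, with a mean of 171 with DMSO and 897 with antimycin. With antimycin, Myh3, Mymk, Ckm and Tnnt3 had means of 0 to 3.25, and only Ckm among them was above its DMSO mean.

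**Figure D3:**
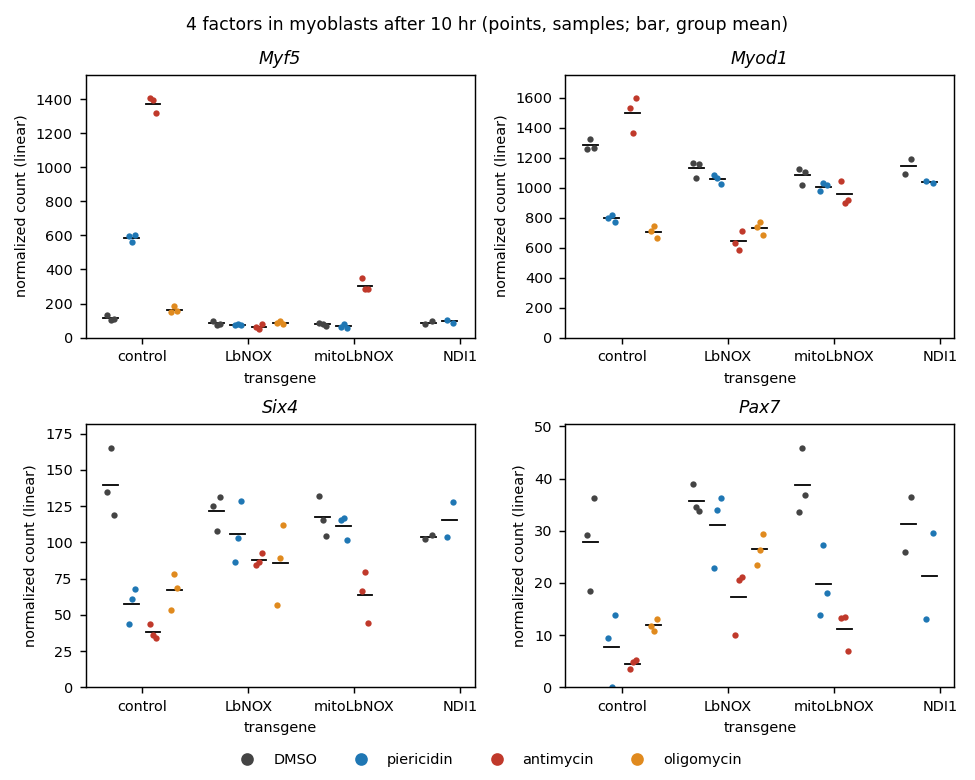
Normalized counts (vertical axes, linear) of Myf5, Myod1, Six4 and Pax7 in myoblasts of the control, LbNOX, mitoLbNOX and NDI1 lines (horizontal axis); colours mark DMSO, piericidin, antimycin and oligomycin for 10 hr, points are samples and bars group means. Myf5 stands at 563 to 600 with piericidin and 1318 to 1404 with antimycin in the control line, and at 49.7 to 78.0 with antimycin in the LbNOX line.

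No factor was called for a transgene on its own. With DMSO, LbNOX, mitoLbNOX and NDI1 myoblasts gave 0 called factors of 6 each against control myoblasts (edgeR; 2.68%, 1.77% and 4.61% of all genes), with 3, 2 and 3 at an unadjusted p under 0.05 and 0, 2 and 0 by DESeq2. Myf5 differed from control in each line by -0.44 ± 0.14, -0.52 ± 0.15 and -0.38 ± 0.16 log2 units, and none of the 3 passed the adjusted threshold.

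Inside the transgenic lines piericidin called no factor. With edgeR, 0 of 6 passed in LbNOX (8.87% of all genes), mitoLbNOX (11.2%) and NDI1 myoblasts (0.00835%). At an unadjusted p under 0.05 there were 0, 1 and 0, and DESeq2 called 0 in each. Myf5 with piericidin was 79.1, 73.8 and 77.1 in LbNOX myoblasts, against 99.7, 77.8 and 77.1 with DMSO. It was 80.7, 64.3 and 55.3 against 88.3, 68.4 and 82.7 in mitoLbNOX myoblasts, and 87.1 and 102 against 79.4 and 97.7 in NDI1 myoblasts, with 2 libraries each. All these libraries lay below the piericidin libraries of the control line.

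The difference between lines was tested as an interaction. The piericidin response of Myf5 differed from that in control myoblasts by -2.50 ± 0.20 log2 units with LbNOX (adjusted p = 1.52e-11), -2.63 ± 0.20 with mitoLbNOX (adjusted p = 7.23e-12) and -2.26 ± 0.22 with NDI1 (adjusted p = 1.08e-09). Opposite in sign to the control-line response, Myod1 (0.59, 0.57 and 0.55) and Six4 (1.07, 1.18 and 1.42) were shifted upward and Mef2d (-0.52, -0.64 and -0.80) downward. In all, 5, 4 and 4 of the 6 factors had an interaction call, where 44.3%, 42.8% and 42.7% of all genes had one. With LbNOX the fifth was Pax7 (1.65 ± 0.62, adjusted p = 0.0316), lost without replicate 2 of LbNOX myoblasts with DMSO or replicate 2 of control myoblasts with DMSO or replicate 1 or 3 of LbNOX myoblasts with piericidin or replicate 3 of control myoblasts with piericidin (adjusted p = 0.0554 to 0.0927). The Mef2d call was lost without replicate 3 of LbNOX myoblasts with DMSO or replicate 1 of control myoblasts with DMSO or replicate 2 of LbNOX myoblasts with piericidin (adjusted p = 0.0671 to 0.0851). With NDI1, Pax7 was called without replicate 2 of control myoblasts with piericidin (adjusted p = 0.0323). The 3 tests share the control-line libraries.

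Antimycin divided the lines. In LbNOX myoblasts it called 1 factor of 6, Myod1 (46.1% of all genes), which went from 1167, 1159 and 1061 to 713, 628 and 584. All antimycin libraries lay below all DMSO libraries, a fall of 1.71-fold (log2 fold change -0.78 ± 0.07 (SE), adjusted p = 1.18e-10). Myf5 in the same cells was 78, 64.2 and 49.7 with antimycin, against 1318 to 1404 in the control line. Against DMSO in LbNOX myoblasts it was not called (-0.36 ± 0.16, adjusted p = 0.0644), except without replicate 1 of LbNOX myoblasts with antimycin or replicate 3 of LbNOX myoblasts with DMSO (adjusted p = 0.0168 to 0.0453) and under scaling by library totals (adjusted p = 0.0118). The count of 1 was the lowest of the settings tried. Pax7 was also called lower by DESeq2 (adjusted p = 0.0325), with only the groups compared (0.0194) and by library totals (0.0298), and Six4 in the last 2 of these (0.0287 and 0.0276), so that the counts were 2, 3 and 4. In mitoLbNOX myoblasts antimycin called 3 factors (1 up, 2 down; 47.7% of all genes), and more than these under scaling by library totals. Myf5 rose from 88.3, 68.4 and 82.7 to 347, 284 and 285 (1.97 ± 0.14, adjusted p = 4.81e-13), Six4 fell 1.81-fold (adjusted p = 0.00138) and Pax7 fell 3.38-fold (adjusted p = 0.00148). Mef2a was called lower without replicate 2 of mitoLbNOX myoblasts with antimycin (adjusted p = 0.0196), and Myod1 without replicate 1 of mitoLbNOX myoblasts with antimycin (adjusted p = 0.0254). The Myf5 level thus stood between those of the LbNOX and the control line.

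Against the control line, the antimycin responses differed for 5 of 6 factors with LbNOX (1 up, 4 down; 51.5% of all genes) and 5 with mitoLbNOX (1 up, 4 down; 31.7%). Myf5 differed by -3.98 ± 0.20 log2 units with LbNOX (adjusted p = 2.77e-16) and -1.65 ± 0.19 with mitoLbNOX (adjusted p = 6.33e-08). Myod1 differed by -1.05 and -0.41, Mef2a by -0.98 and -1.20, Mef2d by -1.16 and -0.92, and Six4 by 1.40 and 0.97. The Six4 call with mitoLbNOX was lost without replicate 2 of mitoLbNOX myoblasts with antimycin (adjusted p = 0.0764), and Pax7 with LbNOX (1.57 ± 0.68, adjusted p = 0.0549) was called without replicate 2 of LbNOX myoblasts with antimycin or replicate 3 of control myoblasts with DMSO (adjusted p = 0.0314 to 0.0316). The proliferation sum with antimycin was 5883 to 6277 in LbNOX and 6647 to 7042 in mitoLbNOX myoblasts, against 6765 to 7079 in the control line, so that the LbNOX range lay wholly below that of the control line. Of its genes, the mitotic cyclin gene Ccnb1 was 1267 ± 53.9 in LbNOX and 2591 ± 6.42 in control myoblasts with antimycin. In LbNOX myoblasts antimycin also raised Cd68 5.95-fold, Tubb3 2.33-fold, Cnn1 1.71-fold and Ly6a 1.45-fold and lowered Pparg 2.06-fold, Runx2 1.89-fold and Smtn 1.30-fold. In mitoLbNOX myoblasts the immune sum (Ptprc, Cd68 and Csf1r) was 8.51 ± 5.11 (SD, n = 3) with DMSO and 73.2 ± 10.9 with antimycin, and the neuronal sum was 291 ± 23.5 and 698 ± 29.8. The part of these values in the differences was not tested.

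Oligomycin in LbNOX myoblasts called 1 factor, Myod1 (35.2% of all genes), which went from 1167, 1159 and 1061 to 737, 774 and 686 with no overlap (log2 fold change -0.60 ± 0.07 (SE), adjusted p = 2.69e-08). Six4 there was called lower without replicate 3 of LbNOX myoblasts with oligomycin (adjusted p = 0.0131). Scaling by library totals gave 3 called factors in place of 1. The oligomycin response differed from that of the control line for 0 of 6 factors (edgeR; 7.98% of all genes), with 2 at an unadjusted p under 0.05, Myf5 and Myod1, and 0 by DESeq2. With TMM scaling, Myod1 was the 1 member called lower with oligomycin in both the LbNOX and the control line.

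Chloramphenicol for 48 hr was measured in 2 libraries per group. Against DMSO it called 0 of 6 factors in control myoblasts and 0 in LbNOX myoblasts (edgeR; 8.45% and 0.931% of all genes), with 2 and 0 at an unadjusted p under 0.05 and 0 and 0 by DESeq2. Myf5 was 214 and 134 with chloramphenicol and 144 and 175 with DMSO in control myoblasts, and these overlapped. Six4 was 82 and 97 against 119 and 151, lower in both treated libraries (-0.54 ± 0.22, adjusted p = 0.188), and Mef2d was 259 and 237 against 216 and 199.9 (0.30 ± 0.13, adjusted p = 0.187).

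In cells 24 hr in low serum, oligomycin changed 4 of the 8 factors that could be tested (2 up, 2 down; 20.7% of all genes) and piericidin 2 (both down; 2.75%). Myf5 went from 213, 155 and 179.8 with DMSO to 353, 346 and 393 with oligomycin, a 2.03-fold rise (log2 fold change 1.02 ± 0.12 (SE), adjusted p = 8.97e-05). Myog, already high, went from 14328, 15415 and 15736 to 19789.7, 20295 and 20579.9 (log2 fold change 0.44 ± 0.04 (SE), adjusted p = 4.78e-06), the highest group mean of Myog in the series. Neither gene's treated libraries overlapped the DMSO libraries. Mef2c moved the other way, from 375, 322 and 359.5 to 169, 211 and 183, a 1.84-fold fall (log2 fold change -0.88 ± 0.10 (SE), adjusted p = 0.000102), and Six4 fell 1.43-fold (-0.52 ± 0.12, adjusted p = 0.00828). Of the 45 downstream muscle genes 44 could be tested with oligomycin at this stage, and 2 rose while 27 fell (median log2 fold change -0.25, against 0.000139 over all genes, of which 20.7% changed). Oligomycin also lowered 2 of the 4 proliferation genes and 1 of the 2 smooth muscle markers tested. Piericidin called none of the proliferation genes and lowered the 1 neuronal marker tested (log2 fold change -0.41). The part of these markers in the responses at 24 hr was not tested.

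Piericidin at 24 hr gave smaller shifts. Mef2c was 249.5, 236 and 230.01 (-0.56 ± 0.10, adjusted p = 0.0151) and Myog 13676, 13204 and 13698 (-0.16 ± 0.04, adjusted p = 0.0401), both below every DMSO library. The Mef2c call was lost without replicate 1 or 3 of 24 hr cells with DMSO or replicate 2 or 3 of 24 hr cells with piericidin (adjusted p = 0.0539 to 0.0717). The Myog call was lost without replicate 2 or 3 of 24 hr cells with DMSO or any 1 replicate of 24 hr cells with piericidin (adjusted p = 0.102 to 0.181). Myf5 was 262, 237 and 234, above every DMSO library, but not called (0.43 ± 0.12, adjusted p = 0.0966), and called without replicate 1 of 24 hr cells with DMSO (adjusted p = 0.0492).

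In untransduced myotubes all 9 factors could be tested, and with each of the 5 treatments Myf5 or Myog was among those called. Against DMSO, oligomycin changed 7 factors (2 up, 5 down; 33.3% of all genes), BAM15 5 (1 up, 4 down; 25.4%), piericidin 3 (1 up, 2 down; 8.99%), antimycin 2 (1 up, 1 down; 12.9%) and hypoxia 2 (1 up, 1 down; 22.1%). These comparisons share their DMSO libraries.

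Myog held 8154, 7909 and 7328 normalized counts in myotubes with DMSO. With oligomycin it held 19013, 19136 and 19053, and in hypoxia 10964, 10496 and 10812. With piericidin it held 6459, 6232 and 6592, and with antimycin 6715, 6835 and 6271. The first pair stood above the DMSO range and the second pair below it, with no overlap. Oligomycin raised Myog 2.45-fold (log2 fold change 1.29 ± 0.04 (SE), adjusted p = 5.88e-18), to a level above that of untreated 24 hr cells, and hypoxia 1.38-fold (log2 fold change 0.46 ± 0.04 (SE), adjusted p = 1.87e-09). The falls with piericidin (-0.27 ± 0.04, adjusted p = 4.24e-05) and antimycin (-0.23 ± 0.04, adjusted p = 0.000235) were small but called. With BAM15 Myog was 7089, 7332 and 7241 (-0.10 ± 0.04, adjusted p = 0.0575), called lower without replicate 3 of myotubes with DMSO (adjusted p = 0.00918).

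Myf5 rose with each of the 4 compounds. It was 100.1, 92.6 and 85.1 with DMSO, 151, 139 and 153 with piericidin, and 161, 145 and 186 with BAM15. It was 187, 171 and 188 with antimycin and 279, 271 and 227 with oligomycin. All 12 treated libraries lay above all 3 DMSO libraries, while the hypoxic libraries, at 81.5, 88 and 93.5, overlapped them. The rises were 1.6-fold (adjusted p = 0.000784), 1.77-fold (adjusted p = 2.19e-05), 1.98-fold (adjusted p = 3.01e-06) and 2.81-fold (adjusted p = 6.04e-10) in that order.

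Oligomycin and BAM15 lowered several of the other factors in myotubes, whereas antimycin called none of them, piericidin Mef2c and hypoxia Myod1. With oligomycin Mef2d went from 661, 701 and 677 to 442, 454 and 440.4, a 1.52-fold fall (log2 fold change -0.61 ± 0.07 (SE), adjusted p = 3.68e-07). Mef2a fell 1.3-fold (adjusted p = 0.00124), Myod1 1.17-fold (adjusted p = 0.000217), Mef2c 1.16-fold (adjusted p = 0.0027) and Six4 1.42-fold (adjusted p = 0.00407). The Six4 call was lost without replicate 3 of myotubes with DMSO (adjusted p = 0.0531), the highest Six4 library of the DMSO group. With BAM15 Mef2a was 934, 818 and 855, a 1.53-fold fall (-0.61 ± 0.09, adjusted p = 1.06e-05), and Myod1 was 1339, 1316 and 1324, a 1.22-fold fall (-0.29 ± 0.04, adjusted p = 2e-05). The remaining BAM15 calls were narrow. Mef2d (-0.22 ± 0.07, adjusted p = 0.0228) was lost without replicate 2 or 3 of myotubes with BAM15 or replicate 2 of myotubes with DMSO (adjusted p = 0.0527 to 0.0927). Six4 (-0.35 ± 0.13, adjusted p = 0.05, which is under the threshold only before rounding) was lost without any 1 replicate of myotubes with BAM15 or replicate 3 of myotubes with DMSO (adjusted p = 0.0697 to 0.306). Hypoxia lowered Myod1 1.14-fold (-0.19 ± 0.04, adjusted p = 0.00171), and Six4 in hypoxia (-0.34 ± 0.13, adjusted p = 0.0602) was called lower without replicate 2 of myotubes with DMSO or replicate 2 of myotubes with DMSO in hypoxia (adjusted p = 0.0219 to 0.0356). Piericidin lowered Mef2c slightly (-0.17 ± 0.05, adjusted p = 0.0492), which was lost without replicate 2 or 3 of myotubes with DMSO or replicate 1 or 3 of myotubes with piericidin (adjusted p = 0.0797 to 0.195). Mef2c with antimycin was called lower without replicate 1 of myotubes with DMSO (adjusted p = 0.0392). Pax7 and Myf6 were called with none of the 5.

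**Figure D4:**
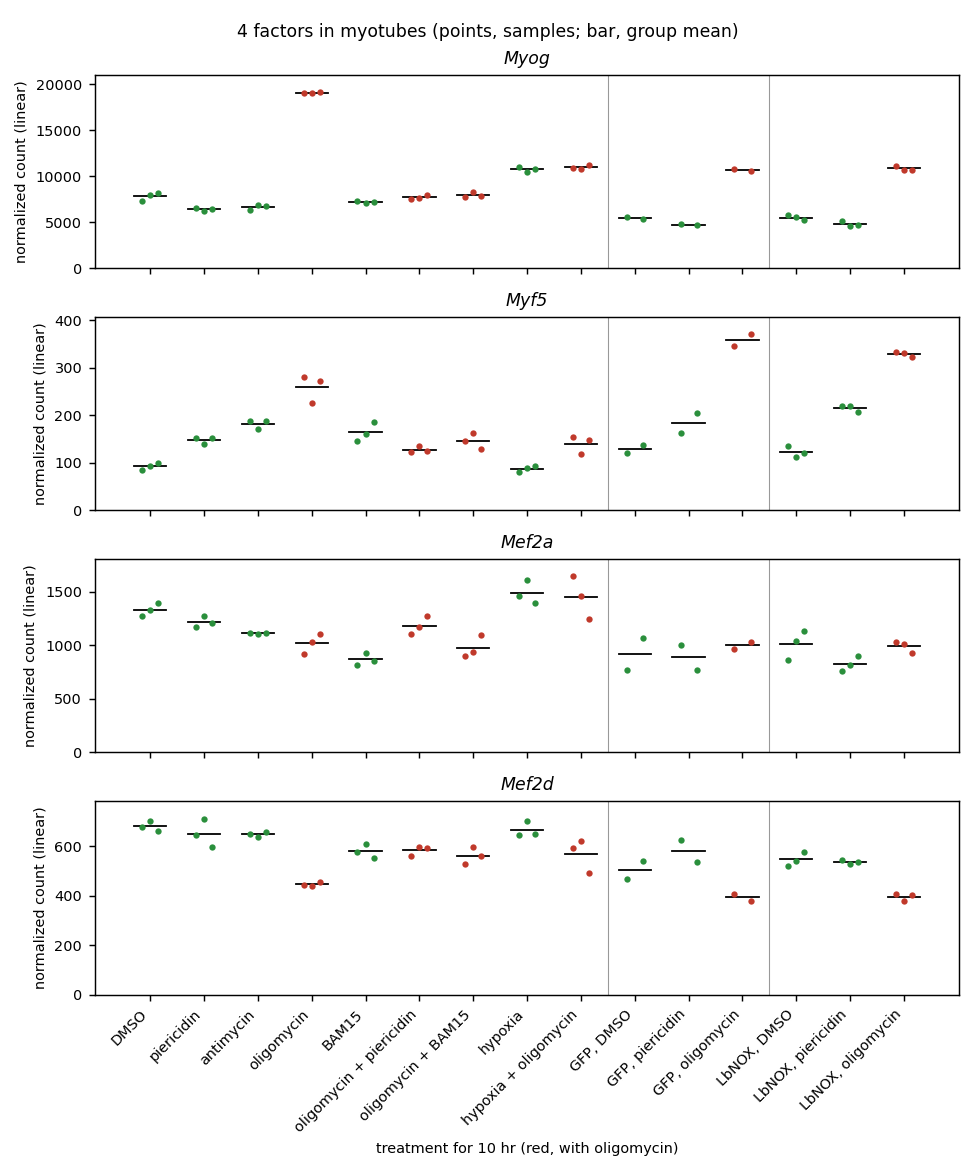
Normalized counts (vertical axes, linear) of Myog, Myf5, Mef2a and Mef2d in every myotube group (horizontal axis: untransduced, then GFP, then LbNOX); points are samples, bars group means, and red marks groups with oligomycin. Myog reaches 19013 to 19136 with oligomycin in untransduced myotubes and 7502 to 11184 in the 3 groups given oligomycin with piericidin, BAM15 or hypoxia.

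Most of the downstream muscle genes were not raised where Myog rose with oligomycin. Of the 45, oligomycin raised 7 and lowered 22 in myotubes (median log2 fold change -0.12; 33.3% of all genes changed), piericidin raised 8 and lowered 16 (median -0.08; 8.99%), antimycin raised 12 and lowered 19 (median -0.08; 12.9%), BAM15 raised 14 and lowered 7 (median -0.02; 25.4%) and hypoxia raised 18 and lowered 10 (median 0.04; 22.1%). The medians over all genes were -0.00584, 0.00694, 0.0113, 0.0229 and 0.0229. Of the 5 muscle genes named above, oligomycin raised Myh4 from 6054 to 6943 normalized counts (adjusted p = 0.0267) and Myh7 from 1583 to 2116 (adjusted p = 0.000525), and it lowered Mymx from 1081 to 544 (adjusted p = 2.34e-10) and Myl1 from 30223 to 27714 (adjusted p = 0.00422). The proliferation sum in myotubes was 1060 to 1308 with DMSO, 1159 to 1263 with oligomycin and 220 to 249 in hypoxia, and its part in the hypoxic values was not tested. Of the markers of other cell types, Cd68 and Tubb3 changed with all 5 treatments. Cd68 went from a mean of 9.60 normalized counts with DMSO to 20.0 to 30.9 (log2 fold change 1.05 to 1.67, adjusted p 0.000135 to 0.0175). Tubb3 went from 403 to between 215 and 316 (log2 fold change -0.88 to -0.34, adjusted p 2.28e-05 to 0.0341). Of the 2 smooth muscle markers tested, 1 was called lower with piericidin, with antimycin and with oligomycin. Smtn was called higher with BAM15 (log2 fold change 0.15, adjusted p = 0.0417), and neither was called in hypoxia. The part of these markers in the responses was not tested either.

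A second treatment on top of oligomycin lowered Myog and Myf5 again. Compared with oligomycin alone, oligomycin with piericidin changed 5 factors (2 up, 3 down; 20.9% of all genes), oligomycin with BAM15 4 (2 up, 2 down; 26.1%) and oligomycin in hypoxia 8 (6 up, 2 down; 33.3%). Myog was 7987, 7631 and 7502 with piericidin added, 7838, 8332 and 7722 with BAM15 added, and 10866, 10825 and 11184 in hypoxia. All 9 libraries lay below the oligomycin libraries, by 2.49-fold (adjusted p = 1.39e-17), 2.4-fold (adjusted p = 9.01e-18) and 1.72-fold (adjusted p = 6.12e-14). Myf5 was 124, 135 and 122 with piericidin added, 129, 163 and 146 with BAM15 added, and 153, 119 and 149 in hypoxia. These too lay below every oligomycin library, by 2.05-fold, 1.78-fold and 1.83-fold (adjusted p = 3.51e-07, 5.48e-06 and 2.34e-06).

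Of the factors that oligomycin had lowered, Mef2d was higher in all 3 combinations and the others in some. Mef2d was 594, 597 and 559.8 with piericidin added (0.38 ± 0.07, adjusted p = 0.00037), 559, 596 and 528 with BAM15 added (0.33 ± 0.07, adjusted p = 0.00127), and 592, 619 and 489.9 in hypoxia (0.36 ± 0.07, adjusted p = 0.000402). In hypoxia Mef2a (0.52 ± 0.09, adjusted p = 3.96e-05) and Mef2c (0.29 ± 0.05, adjusted p = 0.000126) were also higher than with oligomycin in normal oxygen, and so was Myod1 (0.27 ± 0.04, adjusted p = 2.81e-05). Myod1 was raised by piericidin as well (0.20 ± 0.04, adjusted p = 0.0013). Mef2a and Six4 were not called with piericidin or BAM15 added. The weakest calls in this set were Mef2c with piericidin, where it was lower still than with oligomycin alone (-0.16 ± 0.05, adjusted p = 0.0311), lost without replicate 1 or 2 of myotubes with oligomycin or replicate 1 or 2 of myotubes with oligomycin and piericidin (adjusted p = 0.0531 to 0.194), and Mef2c with BAM15, where it was higher (0.15 ± 0.05, adjusted p = 0.0337), lost without replicate 2 or 3 of myotubes with oligomycin and BAM15 or replicate 1 or 3 of myotubes with oligomycin (adjusted p = 0.0656 to 0.122). In hypoxia those of Pax7 (0.57 ± 0.21, adjusted p = 0.0407) and Six4 (0.36 ± 0.13, adjusted p = 0.0361) were lost without replicate 1 or 2 of myotubes with oligomycin in hypoxia or any 1 replicate of myotubes with oligomycin (adjusted p = 0.0554 to 0.165) and without replicate 1 or 2 of myotubes with oligomycin in hypoxia or any 1 replicate of myotubes with oligomycin (adjusted p = 0.064 to 0.182).

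Read from the other side, oligomycin changed few factors once a partner treatment was present. Against piericidin alone, the combination changed 1 factor (1.19% of all genes), Myog, which was 1.19-fold higher (adjusted p = 0.000463), and Mef2c was called lower without replicate 3 of myotubes with oligomycin and piericidin (adjusted p = 0.0177). Against BAM15 alone it changed 0 (edgeR; 1.7% of all genes), with 1 at an unadjusted p under 0.05 and 1 by DESeq2. Against hypoxia alone it changed 2 (4.26% of all genes), Myf5 (0.69 ± 0.13, adjusted p = 0.00127) and Myod1 (0.23 ± 0.04, adjusted p = 0.00132). Myf5 was not called when only these 2 groups were fitted (adjusted p = 0.0663), nor Myod1 without the filter on low counts (adjusted p = 0.112). Myog in hypoxia did not differ beyond its spread with or without oligomycin (0.04 ± 0.04, adjusted p = 0.691).

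Oligomycin also raised Myog and Myf5 in transduced myotubes. With GFP, oligomycin changed 4 factors (2 up, 2 down; 25.9% of all genes), and with LbNOX 5 (2 up, 3 down; 32%). Myog in GFP myotubes, with 2 libraries each, was 5514 and 5380.2 with DMSO and 10767 and 10531 with oligomycin (log2 fold change 0.95 ± 0.05 (SE), adjusted p = 1.01e-08). In LbNOX myotubes it was 5728, 5509 and 5183 and 11128, 10718 and 10660.4 (log2 fold change 0.97 ± 0.04 (SE), adjusted p = 5.49e-10). In both, all oligomycin libraries lay above all DMSO libraries. Myf5 rose 2.75-fold with GFP (adjusted p = 1.03e-06) and 2.65-fold with LbNOX (adjusted p = 1.08e-07). Myod1 fell from 1689 and 1537 to 882 and 985 with GFP (-0.80 ± 0.07, adjusted p = 1.29e-06) and from 1524, 1534 and 1601 to 923, 918 and 929.9 with LbNOX (-0.76 ± 0.06, adjusted p = 1.48e-07). Mef2d fell as well (-0.37 ± 0.10, adjusted p = 0.0127, and -0.48 ± 0.08, adjusted p = 0.000341), with GFP not without replicate 2 of GFP myotubes with DMSO or replicate 2 of GFP myotubes with oligomycin (adjusted p = 0.0987 to 0.137). Mef2c with LbNOX (-0.21 ± 0.08, adjusted p = 0.0496) lost its call in each of the 6 fits that left out 1 library (adjusted p 0.0513 to 0.177), and with GFP it was called lower without replicate 2 of GFP myotubes with oligomycin (adjusted p = 0.0451).

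No factor was called for LbNOX against GFP in myotubes. With DMSO, 0 of 9 factors were called (edgeR; 0.0242% of all genes), 0 at an unadjusted p under 0.05 and 0 by DESeq2. The piericidin and oligomycin responses differed between LbNOX and GFP for 0 of 9 factors each (0% of all genes for piericidin and 0% for oligomycin), again with 0 at an unadjusted p under 0.05 and 0 by DESeq2. For Myog the oligomycin interaction was 0.02 ± 0.07 log2 units. Piericidin called 2 factors in LbNOX myotubes (6.78% of all genes), Myf5 upward (0.80 ± 0.11, adjusted p = 0.000359) and Myog downward (-0.19 ± 0.04, adjusted p = 0.0171). The Myog call was lost without replicate 1 or 2 of LbNOX myotubes with DMSO or replicate 1 or 3 of LbNOX myotubes with piericidin (adjusted p = 0.0666 to 0.0941). In GFP myotubes piericidin called 0 (edgeR; 3.09% of all genes), with 2 at an unadjusted p under 0.05 and 1 by DESeq2, and Myf5 (0.50 ± 0.13, adjusted p = 0.0534) was called without replicate 1 of GFP myotubes with piericidin (adjusted p = 0.0376).

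**Figure D5:**
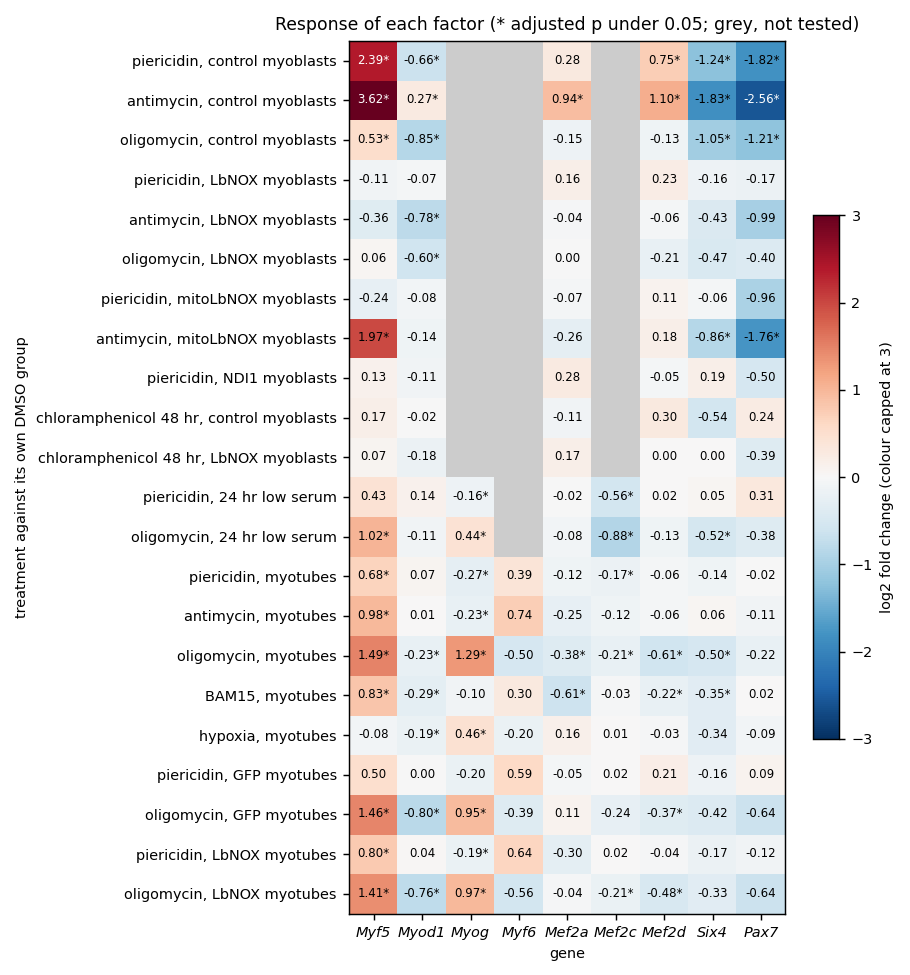
Log2 fold change (colour, capped at 3, with the value in each cell) of each factor (horizontal axis) for each treatment against its DMSO group (vertical axis); an asterisk marks an adjusted p under 0.05 and grey cells were not tested. The Myf5 column holds the largest upward values, 3.62 and 2.39 in control myoblasts with antimycin and piericidin, the largest fall is that of Pax7 with antimycin in control myoblasts (-2.56), and the Myod1 cell for antimycin in control myoblasts (0.27) turned to -0.03 under scaling by library totals.

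Whether the response to 1 inhibitor depended on the cell state was tested as an interaction within the 33 libraries of the 3 states. Myog, Myf6 and Mef2c have too few counts in myoblasts to give a response there, so contrasts with myoblasts are counted over the other 6 factors. For piericidin, myotubes differed from myoblasts in 6 of the 6 (3 up, 3 down; 46.5% of all genes) and 24 hr cells from myoblasts in 5 (3 up, 2 down; 46.6%). The Myf5 response to piericidin was lower in myotubes (-1.67 ± 0.16, adjusted p = 1.74e-09) and in 24 hr cells (-1.91 ± 0.15, adjusted p = 2.22e-11) than in myoblasts. The falls of Six4, Pax7 and Myod1 with piericidin in myoblasts were also state-dependent, with interactions for myotubes of 1.15, 1.86 and 0.77 log2 units. Mef2a (-0.36 ± 0.14, adjusted p = 0.0299) was lost without replicate 1 of control myoblasts with piericidin (adjusted p = 0.0977), and Mef2a at 24 hr was called without replicate 2 of 24 hr cells with piericidin or replicate 2 of control myoblasts with DMSO (adjusted p = 0.0353 to 0.045). Between myotubes and 24 hr cells the piericidin response differed for 0 factors (edgeR; 0.689% of all genes), with 1 at an unadjusted p under 0.05, Mef2c, and 0 by DESeq2.

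For antimycin, 6 of the 6 factors differed between myotubes and myoblasts (2 up, 4 down; 47.9% of all genes). Myf5 (-2.59 ± 0.16, adjusted p = 1.06e-13), Mef2a (-1.14) and Mef2d (-1.11) had lower responses in myotubes. Six4 (1.94) and Pax7 (2.50), which fell in myoblasts, had higher ones, and in myotubes neither was called with antimycin (Six4 0.06, adjusted p = 0.811; Pax7 -0.11, adjusted p = 0.809). The Myod1 interaction (-0.21 ± 0.08, adjusted p = 0.0288) turned to 0.07 under scaling by library totals only and was lost without replicate 1 or 2 of control myoblasts with antimycin or replicate 2 or 3 of myotubes with antimycin (adjusted p = 0.0526 to 0.0894).

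For oligomycin, 3 of the 6 factors differed between myotubes and myoblasts (2 up, 1 down; 29% of all genes), 3 between 24 hr cells and myoblasts (all up; 24.9%) and 3 factors between myotubes and 24 hr cells (2 up, 1 down; 3.57%). Myf5 rose more with oligomycin in myotubes than in myoblasts (0.96 ± 0.16, adjusted p = 4.7e-05), the reverse of its order with the other inhibitors. The Myod1 response, a fall in myoblasts, was higher in untransduced myotubes and in 24 hr cells (0.63 and 0.77). In transduced myotubes the Myod1 log2 fold change with oligomycin was -0.80 with GFP and -0.76 with LbNOX, beside -0.85 in control myoblasts and -0.23 in untransduced myotubes, and these differences were not tested. Myog rose more in myotubes than at 24 hr (log2 fold change 0.82 ± 0.10 (SE), adjusted p = 3.88e-06), and Mef2c, which fell at 24 hr, fell less in myotubes (0.63 ± 0.14, adjusted p = 0.00824). The Myog interaction against myoblasts (1.54 ± 0.44, adjusted p = 0.0277) was called but is no measure of a difference, since Myog entered the fit through the later states, and its call was lost without replicate 1 of control myoblasts with DMSO or replicate 1 or 3 of control myoblasts with oligomycin (adjusted p = 0.0731 to 0.345). The Six4 interaction at 24 hr (0.57 ± 0.21, adjusted p = 0.0465) was lost in 10 of the 12 fits that left out 1 library (adjusted p 0.0716 to 0.257). The Myf5 interaction at 24 hr (0.53 ± 0.16, adjusted p = 0.0127) was lost without replicate 2 or 3 of 24 hr cells with DMSO or replicate 3 of 24 hr cells with oligomycin or replicate 1 of control myoblasts with DMSO or replicate 2 of control myoblasts with oligomycin (adjusted p = 0.0595 to 0.159). That of Mef2d between myotubes and 24 hr cells (-0.51 ± 0.12, adjusted p = 0.0135) was lost without replicate 1 of 24 hr cells with DMSO or replicate 2 of 24 hr cells with oligomycin or replicate 2 or 3 of myotubes with DMSO or replicate 1 or 3 of myotubes with oligomycin (adjusted p = 0.0534 to 0.118). Six4 against myoblasts (0.55 ± 0.21, adjusted p = 0.0515) was gained without replicate 2 of control myoblasts with DMSO or replicate 3 of control myoblasts with oligomycin or replicate 3 of myotubes with DMSO (adjusted p = 0.0184 to 0.0267), and Myf5 against 24 hr cells (0.43 ± 0.16, adjusted p = 0.133) without replicate 2 of 24 hr cells with DMSO or replicate 3 of myotubes with oligomycin (adjusted p = 0.0308 to 0.0325).

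Over all 35 groups the factors divided by how much of their variation lay between states. The share of the spread of group means (log2 scale) found between the 3 states was 99.3% for Mef2c, 98.2% for Myog, 96.5% for Myf6, 94.4% for Mef2a and 82.4% for Mef2d. It was 66.2% for Pax7, 54.7% for Six4, 53.4% for Myod1 and 7.25% for Myf5. Myf5 was the member with the smallest such share, and most of its spread lay within states, with a range of 4.40 log2 units over the 17 myoblast groups. Its order ran from antimycin in control myoblasts (1372 ± 46.9) and piericidin in control myoblasts (587 ± 20.8) through oligomycin at 24 hr (364 ± 25.7) down to antimycin in LbNOX myoblasts (64 ± 14.2). Of the 34 steps between neighbouring groups in that order, 7 had no overlap of libraries, against 10 for Myog, 6 for Mef2c and 1 for Myf6.

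The lowest and highest groups of the other members can be placed in the same way. Myod1 was highest in 24 hr cells with piericidin (2307 ± 90.8) and lowest in LbNOX myoblasts with antimycin (642 ± 65.6), the latter overlapping its neighbour. Myog was highest in 24 hr cells with oligomycin (20222 ± 400.2). Pax7 was highest in 24 hr cells with piericidin (161 ± 8.24) and lowest in control myoblasts with antimycin (4.51 ± 0.846). Six4 shared both of these extremes (241 ± 18.6 and 38 ± 5.16). Mef2a and Mef2c were highest in hypoxic myotubes (1489 ± 109 with DMSO and 2553 ± 59.6 with oligomycin) and Mef2d in myotubes with DMSO (679.8 ± 20.4), and Myf6 in LbNOX myotubes with piericidin (85.6 ± 9.03), its libraries overlapping the next group.

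Six4 and Pax7 were the pair of members that moved most alike within myoblasts, as a description over groups that share cell line and library method. Pearson's r of their log2 levels was 0.93 over the 35 groups, 0.884 over the 17 myoblast groups and 0.629 over the 15 myotube groups. Genes with the pattern most like each member were sought among 10714 expressed genes. For Myog they were Tnni1 (r = 0.9927), Mymk (0.9921) and Tnnc2 (0.9915), which encode slow troponin I, the fusion protein myomaker and fast troponin C. For Mef2c they were Hhatl (0.9952), Pgm5 (0.9938) and Tceal7 (0.9937), for Myf6 Zap70 (0.9826), Pacsin1 (0.9801) and Mybpc2 (0.9799), for Mef2a Cavin4 (0.9834), Stk17b (0.9811) and Dlgap4 (0.9807), and for Mef2d Synpo2 (0.9600), Arfgap3 (0.9519) and Tbc1d1 (0.9518). For Six4 they were Fkbp14 (0.9509), Lix1l (0.9506) and Maged1 (0.9453), and for Pax7 Lix1l (0.9508), Dnm3os (0.9455) and Maged1 (0.9325), so that 2 of the 3 were common to Six4 and Pax7. The order of such close values depended on the pseudocount. With 8 in place of 1, Pgm5 stood 50th and Tceal7 19th for Mef2c, Tnni1 14th for Myog, and Mybpc2 15th and Zap70 10th for Myf6. Myf5 and Myod1, which varied with treatment, had looser neighbours. For Myf5 these were Atp6v1b2 (0.9097), Alg2 (0.8916) and Nr2c1 (0.8879), and for Myod1 Pacs2 (0.8991), Myo1e (0.8929) and Ddah2 (0.8790).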

How the data were processed

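The members and gene lists were chosen with earlier results of these data known. Smart-seq2 poly(A) libraries, which carry no strand information, were quantified by the authors with kallisto 0.44 (bias correction) against Ensembl 93 (GRCm38.p6) and summed per gene with tximport, and the deposited table holds estimated counts. Totals of 6458295 to 15366745 per library set the precision, and intervals and floors cover counting error only. The labels gave each library's group and replicate number but did not say whether replicates were separate cultures, so p-values measure only the spread between these samples. No replicate pair of 87 held identical values.

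Estimated counts were rounded to whole numbers, a gene entered a fit when some group had 16 counts or more in each of its replicates, and edgeR 4.0.16 (R 4.3.3) was applied with TMM scaling, the quasi-likelihood test and Benjamini-Hochberg adjustment over all genes of the fit. SE was taken as the size of the log2 change over the root of the F statistic. Levels per length used the union of a gene's exons. Alternatives were DESeq2 1.42.0 (Wald test, or its size factors), library totals, no low-count filter, only the groups compared, a plate position covariate, a replicate block, GFP-transduced myotubes as reference and each library left out. Over the 6 fits, deviations of same-numbered samples correlated by -0.0355 to 0.0222 on average and those of other samples by -0.0111 to 0.0261. Of the same-numbered pairs, 1 to 27 per fit exceeded 0.1 and the lowest lay at -0.219 to -0.0534, so the numbers were not taken to pair samples and no block was used. Scripts were tested on simulated data. Partner and muscle genes were named as the 5 largest called changes per direction and list from myoblasts to myotubes, and 1 of them is not reported here. Likeness was Pearson's r of log2(group mean + 1) among genes reaching a normalized count of 50. Figures used matplotlib.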

Additional observations from a re-analysis of the deposited data

Results flagged for a closer look

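Responses of 50 factor and contrast pairs differed between cell states or between myoblast lines by the interaction test of edgeR (adjusted p under 0.05), and each is given as a difference of log2 fold changes. The sign is that of the first group named minus the second. For piericidin, myotubes minus control myoblasts, it was -1.67 for Myf5, 0.77 for Myod1, -0.36 for Mef2a, -0.76 for Mef2d, 1.15 for Six4 and 1.86 for Pax7. For antimycin, the same contrast was -2.59 for Myf5, -0.21 for Myod1, -1.14 for Mef2a, -1.11 for Mef2d, 1.94 for Six4 and 2.50 for Pax7. For oligomycin, the same contrast was 0.96 for Myf5, 0.63 for Myod1, 1.54 for Myog and -0.47 for Mef2d. The Myog value is no measure of a difference, since Myog has too few counts in myoblasts to give a response there and entered the fit through the later states. Between 24 hr cells and control myoblasts, the piericidin difference was -1.91 for Myf5, 0.85 for Myod1, -0.68 for Mef2d, 1.33 for Six4 and 2.19 for Pax7, and the oligomycin difference 0.53 for Myf5, 0.77 for Myod1 and 0.57 for Six4. Between myotubes and 24 hr cells, the oligomycin difference was 0.82 for Myog, 0.63 for Mef2c and -0.51 for Mef2d. Among myoblast lines, LbNOX minus control was, for piericidin, -2.50 for Myf5, 0.59 for Myod1, -0.52 for Mef2d, 1.07 for Six4 and 1.65 for Pax7. For antimycin, LbNOX minus control was -3.98 for Myf5, -1.05 for Myod1, -0.98 for Mef2a, -1.16 for Mef2d and 1.40 for Six4. For mitoLbNOX minus control, the piericidin difference was -2.63 for Myf5, 0.57 for Myod1, -0.64 for Mef2d and 1.18 for Six4, and the antimycin difference -1.65 for Myf5, -0.41 for Myod1, -1.20 for Mef2a, -0.92 for Mef2d and 0.97 for Six4. For NDI1 minus control, the piericidin difference was -2.26 for Myf5, 0.55 for Myod1, -0.80 for Mef2d and 1.42 for Six4. The Myod1 value for antimycin in myotubes minus myoblasts changed sign under scaling by library totals only. Tests of 1 inhibitor share DMSO libraries across contrasts, so these values are not independent of each other.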

How the results depend on the processing

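Most counts of called factors stayed within 1.5 times of the reported count, and the others follow. With no low-count filter the count went from 3 to 1 for the oligomycin response of 24 hr cells minus myoblasts, from 0 to 1 for mitoLbNOX, for LbNOX after 48 hr of DMSO and for piericidin in GFP myotubes, from 5 to 3 for BAM15 and from 2 to 1 for oligomycin in hypoxia. With only the groups compared it was 1 for that 24 hr oligomycin response, 3 in place of 1 for antimycin in LbNOX myoblasts, and 1 in place of 2 for oligomycin in hypoxia, piericidin in LbNOX myotubes and piericidin at 24 hr. Scaling by library totals gave 2 in place of 4 for piericidin against oligomycin, 2 in place of 0 for mitoLbNOX, 4 and 3 in place of 1 for antimycin and oligomycin in LbNOX myoblasts, 5 in place of 3 for antimycin in mitoLbNOX myoblasts, 1 in place of 0 for piericidin in GFP and 1 in place of 2 in LbNOX myotubes. The same scaling reversed Myod1 with antimycin in control myoblasts (-0.0274) and its myotube minus myoblast difference (0.0735). DESeq2's test gave 2 for mitoLbNOX, 2 for antimycin in LbNOX myoblasts, 2 for oligomycin added to piericidin, 1 for oligomycin added to BAM15 and 1 for piericidin in GFP myotubes, and its size factors gave 2 for oligomycin added to piericidin. A plate position covariate gave 3 for BAM15, 2 for oligomycin added to piericidin and 1 for piericidin in GFP myotubes. Leaving out each library in turn gave 1 to 3 for the 24 hr oligomycin response, 2 to 4 for piericidin against oligomycin, 1 to 2 for antimycin and 1 to 2 for oligomycin in LbNOX myoblasts, 3 to 5 for BAM15, 1 to 2 for oligomycin added to piericidin, 0 to 1 and 1 to 2 for piericidin in GFP and LbNOX myotubes and 0 to 2 for piericidin at 24 hr. A pseudocount of 8 moved the median correlation between members from 0.653 to 0.644, and 17 likeness values moved while 20 did not. The cause was not tested.

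The replicate numbers did not pair the samples. A replicate block gave 1 in place of 0 called factors for mitoLbNOX and for piericidin in GFP myotubes, and 9 for myotubes against 24 hr cells. Low counts limit Pax7 in treated myoblasts, and Myog, Myf6 and Mef2c could not be tested there.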
